A study of Mus musculus with 4 samples.

Results

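The Grem1 and Fmn1 locus lies on mouse chromosome 2 and holds the genes Fmn1, Grem1, Scg5 and Arhgap11a. ATAC-seq peaks were taken from it if they overlapped the body of any of these 4 genes (GENCODE M21, mm10) or the 100 kb on either side, which makes a stretch of 721 kb, chr2:113227736-113948661. It held 22 of the 75101 peaks in the 4 lists. Merging peaks that overlapped by at least 1 bp gave 11 regions of 44692, of which 6 were promoter regions and 5 were distal. A promoter region overlaps the window from 2 kb before to 1 kb after a transcription start site.

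ATAC-seq uses the Tn5 transposase to cut open chromatin. It was applied to posterior forelimb buds of Swiss Webster embryos at E10.5 (35 somites), with 5000 cells per reaction and 18 PCR cycles. Wild-type (WT) embryos gave 2 libraries, and Shh-/- embryos, homozygous for the null allele Shh tm1amc, gave 2. Each library came from the pair of posterior forelimb pieces of a single embryo, so a value describes the cells left in that piece and not a sorted cell type. In bulk tissue, fewer cells with an open site and a less open site in each cell cannot be told apart. The comparison asks which sites were called with and without Sonic hedgehog (SHH).

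GREM1 is a secreted antagonist of BMPs. In the limb bud, SHH from the posterior mesenchyme keeps Grem1 on, GREM1 holds BMP activity down, and this keeps FGFs flowing from the ectodermal ridge, which in turn sustains Shh. The neighbouring gene Fmn1 encodes a formin, a protein that assembles actin filaments, and its introns hold enhancers that act on Grem1. Limb defects once assigned to Fmn1 were later traced to loss of these Grem1 enhancers. Scg5 encodes a chaperone of a prohormone convertase in neuroendocrine cells, and Arhgap11a encodes a GTPase-activating protein that is used in dividing cells.

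Sequences at or next to called regions of this locus are given here in mm10. The first 3 are the bases before the start sites of Grem1, Arhgap11a and Fmn1 (RefSeq, GRCm38.p6), shown because these promoters had different calls. They are read in the direction of each gene, with each CpG in capitals. The fourth is GRE1, a limb enhancer near Grem1 that the study lists as a GLI3 binding region, from the start of its only ATAC peak to the end of a match to the GLI motif, which is in capitals. The last 3 are 200 bp around the summits of the other intronic regions of Fmn1, again with CpG in capitals. The regions in intron 4 and intron 8 were called in both Shh-/- libraries and in neither WT library, and the region in intron 5 is their neighbour with calls in both genotypes.
Grem1 start, 250 bases before it, minus strand, chr2:113758649-113758898: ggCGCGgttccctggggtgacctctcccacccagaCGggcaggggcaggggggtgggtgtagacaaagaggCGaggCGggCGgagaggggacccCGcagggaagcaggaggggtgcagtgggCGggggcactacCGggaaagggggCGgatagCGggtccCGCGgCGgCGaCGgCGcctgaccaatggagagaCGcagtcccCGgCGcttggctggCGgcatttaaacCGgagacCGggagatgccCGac
Arhgap11a start, 250 bases before it, minus strand, chr2:113848662-113848911: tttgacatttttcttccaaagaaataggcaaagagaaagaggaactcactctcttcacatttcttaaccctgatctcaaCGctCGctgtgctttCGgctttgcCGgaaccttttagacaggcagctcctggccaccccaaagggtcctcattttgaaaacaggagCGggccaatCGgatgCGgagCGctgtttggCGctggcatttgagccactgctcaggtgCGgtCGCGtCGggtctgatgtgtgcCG
Fmn1 start, 250 bases before it, plus strand, chr2:113327486-113327735: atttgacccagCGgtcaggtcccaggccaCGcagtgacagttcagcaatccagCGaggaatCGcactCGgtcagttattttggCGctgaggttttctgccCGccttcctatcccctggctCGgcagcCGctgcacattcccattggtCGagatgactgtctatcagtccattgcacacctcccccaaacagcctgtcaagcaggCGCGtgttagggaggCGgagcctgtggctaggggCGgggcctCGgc
GRE1 peak to the end of the GLI match, plus strand, chr2:113640859-113641091: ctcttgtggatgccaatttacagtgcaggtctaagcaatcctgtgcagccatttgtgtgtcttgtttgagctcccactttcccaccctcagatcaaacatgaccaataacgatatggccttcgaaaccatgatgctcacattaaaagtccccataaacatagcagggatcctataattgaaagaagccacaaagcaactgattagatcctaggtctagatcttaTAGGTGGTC
Fmn1 intron 4 region, plus strand, chr2:113460822-113461021: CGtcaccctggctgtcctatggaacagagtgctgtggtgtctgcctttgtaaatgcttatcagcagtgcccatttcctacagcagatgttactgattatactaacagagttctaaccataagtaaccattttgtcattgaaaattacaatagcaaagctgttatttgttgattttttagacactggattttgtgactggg
Fmn1 intron 5 region, plus strand, chr2:113497885-113498084: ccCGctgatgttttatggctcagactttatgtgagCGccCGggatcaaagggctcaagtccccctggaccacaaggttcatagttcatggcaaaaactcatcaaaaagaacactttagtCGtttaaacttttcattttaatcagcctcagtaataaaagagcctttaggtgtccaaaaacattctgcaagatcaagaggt
Fmn1 intron 8 region, plus strand, chr2:113581463-113581662: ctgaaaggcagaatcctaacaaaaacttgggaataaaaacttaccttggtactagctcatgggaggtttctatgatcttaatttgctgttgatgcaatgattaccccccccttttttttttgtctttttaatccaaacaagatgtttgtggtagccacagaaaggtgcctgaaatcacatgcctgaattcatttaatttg

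CpG content differed between the starts of these genes. In the 300 bases around the RefSeq start, Grem1 had 70.7% GC and 28 CpG, more GC than 91.4% of 32851 mouse promoters. Arhgap11a had 55.3% GC and 19 CpG, Fmn1 had 62.0% GC and 21 CpG, and Scg5 had 54.0% GC and 9 CpG, against medians of 52.7% and 7 over all promoters. A second RefSeq start of Fmn1, where no library had a peak, had 44.0% GC and 0 CpG. The 200 bp in intron 4 of Fmn1 held 1 CpG, those in intron 5 held 4 and those in intron 8 held 0, against a median of 3 in windows of that length over all distal regions.

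The lists were of unequal length. There were 39080 peaks for WT replicate 1, 11973 for WT replicate 2, 5589 for Shh-/- replicate 1 and 18459 for Shh-/- replicate 2. A list gives no read counts, and the study states a sequencing depth for ATAC-seq but not per library. The depth behind a call in each library is therefore unknown. A site without a peak was not called, which does not make it closed. Promoters of limb mesenchyme markers were called for 6, 2, 2 and 3 of 6 genes in WT replicates 1 and 2 and Shh-/- replicates 1 and 2, in that order, where 60.4%, 39.2%, 17.2% and 51.2% of all protein-coding genes had a promoter peak. The counts were 2, 0, 0 and 1 of 2 for the hindlimb genes Pitx1 and Tbx4, 0, 0, 0 and 1 of 5 for limb ectoderm, 1, 0, 0 and 1 of 4 for endothelium, 2, 1, 0 and 2 of 2 for muscle progenitors, and 0 of 3 in every library for blood. The Shh promoter was called in no library, so the lists give no check of the genotype at the targeted gene. The part that list length and cell makeup had in the results below was not tested.

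WT replicate 1 held 8 peaks at the locus and the other WT library held 2. Shh-/- replicate 1 held 3 and the other Shh-/- library held 9. The library with the longer list of each genotype had the more peaks, and the genotypes overlapped. WT averaged 5 ± 4.24 locus peaks (SD, n = 2) against 6 ± 4.24 for Shh-/- (SD, n = 2), a difference within the spread between libraries (two-sided exact permutation test, p = 0.667). With 2 libraries against 2 this test cannot go below 0.333, so no difference could pass 0.05. The peaks covered 4613 bp and 1189 bp in the WT libraries and 945 bp and 4994 bp in the Shh-/- libraries. WT averaged 2901 ± 2421 bp (SD, n = 2) against 2969.5 ± 2863 bp for Shh-/- (SD, n = 2) (two-sided exact permutation test, p = 1).

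Set against list length, the locus took a larger share of the Shh-/- lists. Per 10000 peaks of the list, the locus held 2.05 in WT replicate 1 (95% Wilson interval 1.04 to 4.04), 1.67 in the other WT library (0.458 to 6.09), 5.37 in Shh-/- replicate 1 (1.83 to 15.8) and 4.88 in the other Shh-/- library (2.57 to 9.26). The values of the genotypes did not overlap, but the intervals, which cover counting error only, did, and the difference had the smallest p that the design allows (two-sided exact permutation test, p = 0.333). With each list limited to its 5589 best peaks (equal list size), the locus held 2 and 1 in WT and 3 and 2 in Shh-/-.

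**Figure D1:**
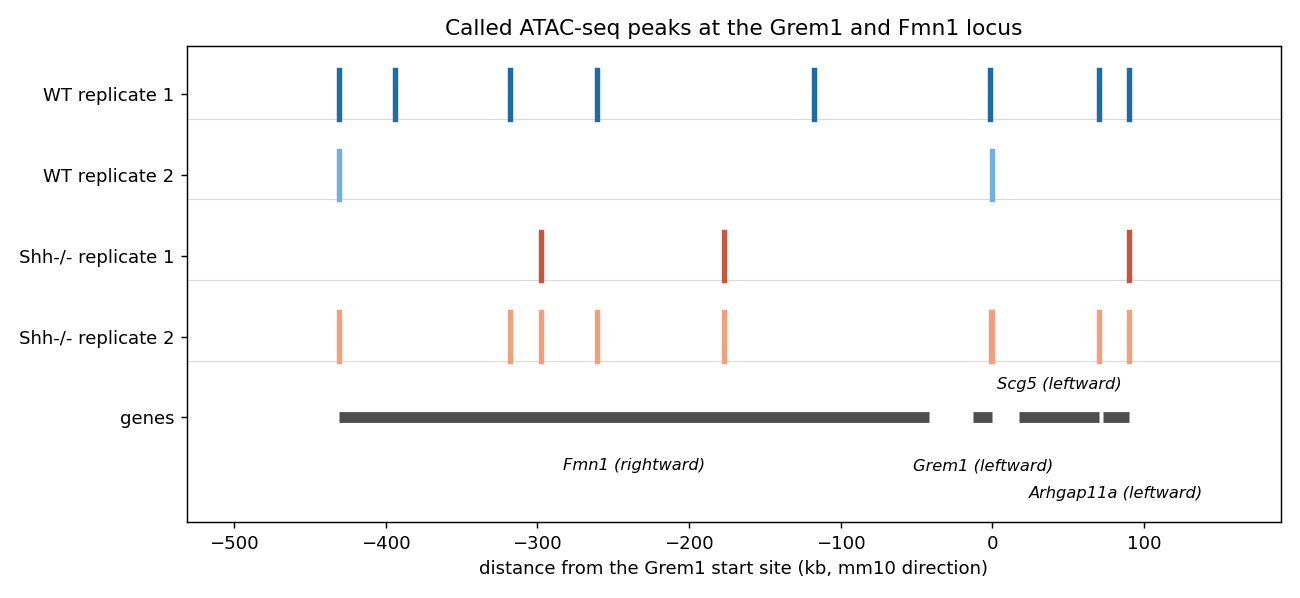
Called peaks at the locus, with 1 row per library and the bodies of the 4 genes below, against the distance from the Grem1 start in kb. Each upright mark is a peak, and the 2 peaks of Shh-/- replicate 2 near 0 run together at this scale. WT replicate 1 and Shh-/- replicate 2, the longest list of each genotype, carry 8 and 9 of the 22 peaks, and both Shh-/- libraries have marks at 298 and 177 kb to the left of Grem1 where neither WT library has one.

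No region of the locus was called in all 4 libraries, against 7.97% of all regions, and 0 of 11 were called in both WT and no Shh-/- library, against 2.09%. Both Shh-/- libraries and no WT library called 2 of the 11, against 0.396% of all regions (177 of 44692). Both of these were distal, 2 of 5 against 0.607% of all distal regions (165 of 27184). Calls in WT replicate 1 and Shh-/- replicate 2 alone, the longest lists, made up 4 of 11 against 11.0%. A single library called 2 of 11, against 64.2% of all regions. The other 3 regions were called in WT replicates 1 and 2 and Shh-/- replicate 2 (Fmn1 promoter), in WT replicate 1 and both Shh-/- libraries (Arhgap11a promoter), and in WT replicate 2 and Shh-/- replicate 2 (Grem1 start).

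Grem1 itself, 12.5 kb long on the minus strand with a single start site at 113758646, was called at its start in 1 library of each genotype. The peak of WT replicate 2 (chr2:113758076-113758671) ranked 6457 of 11973 by score, with 53.9% of the list scoring higher. The peak of Shh-/- replicate 2 (chr2:113758395-113758938) ranked 11386 of 18459, with 61.7% scoring higher. Neither WT replicate 1, the longest list, nor Shh-/- replicate 1 had a peak there. These were middling ranks in their lists. Among the 710 promoter regions whose WT replicate 2 peak lay in the same decile (10 equal parts by rank) of that list, 94.1% were also called in WT replicate 1. In Shh-/- replicate 1, 12.4% of them were called. Of the 1173 in the decile of the Shh-/- replicate 2 peak, 84.2% were in WT replicate 1 and 4.94% in Shh-/- replicate 1. The calls at Grem1 do not follow genotype, being present in 1 of 2 libraries of each. Absence from Shh-/- replicate 1 was the commoner outcome at these ranks, and absence from WT replicate 1 was not.

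The peaks at the Grem1 start overlapped by 277 bp, and their summits were 414 bp apart. In WT replicate 2 the summit lay 238 bp inside the gene. In Shh-/- replicate 2 it lay 176 bp before the start, within the CpG-rich sequence printed above. Further in, WT replicate 1 and Shh-/- replicate 2 shared a region in intron 1 of Grem1 (chr2:113757354-113757676), with summits 25 bp apart. Its peaks were weak in their lists, with 72.5% of WT replicate 1 and 83.0% of Shh-/- replicate 2 scoring higher. The peak of Shh-/- replicate 2 reached 31 bp into the promoter window and that of WT replicate 1 ended 72 bp short of it, so the window decided that Grem1 counted as not called in WT replicate 1.

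**Figure D2:**
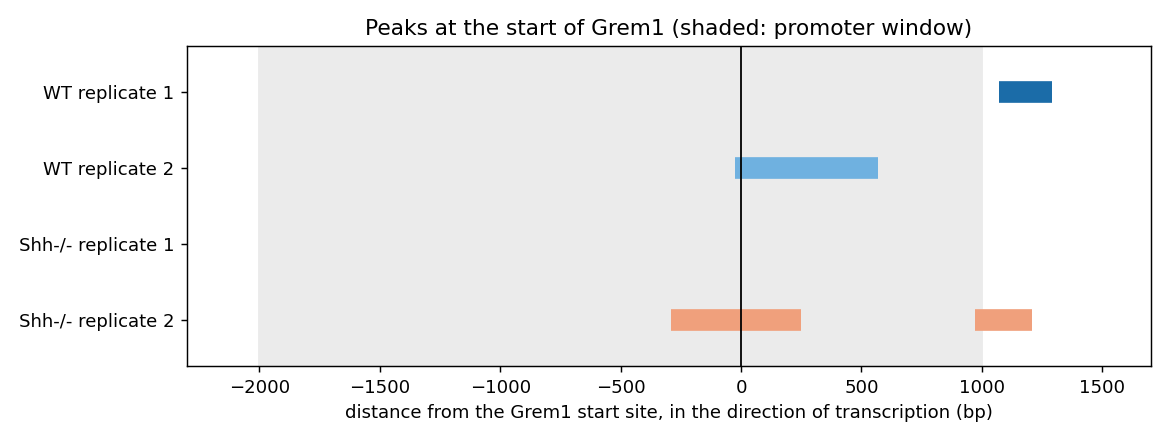
Peaks at the start of Grem1 by library, against the distance from the start in bp in the direction of transcription. Bars are called peaks and the shaded band is the promoter window. WT replicate 2 and Shh-/- replicate 2 have a peak over the start, WT replicate 1 has its nearest peak 72 bp past the end of the window, and Shh-/- replicate 1 has none.

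Calls in WT replicate 2 and Shh-/- replicate 2 only were found at the promoters of Grem1 and 33 other protein-coding genes (0.155% of 21924). The nearest in mean difference of within-list position over those 2 libraries were Snrpb2, which encodes a spliceosome protein and differed by 0, D17H6S53E, Polr2m and Crct1, each at 2.97 percentage points, and Gypc at 4.40. Many peaks share a score (1053 shared that of Grem1 in WT replicate 2 and 1097 in Shh-/- replicate 2), so ties of this kind are common.

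GRE1, the GLI3-bound enhancer, was called in WT replicate 1 alone. Its peak (chr2:113640859-113641083, 225 bp) lay in intron 15 of the Fmn1 transcript Fmn1-202, 118 kb from the Grem1 start. Its score was 53, which ranked 15186 of 39080, with 38.9% of the list scoring higher. WT replicate 2 and both Shh-/- libraries had no peak in it. Such a call often stood alone: of the 2568 distal regions whose WT replicate 1 peak lay in the same decile of the list, 68.7% were in no other list, 7.32% were also listed by WT replicate 2, 7.48% by Shh-/- replicate 1 and 26.3% by Shh-/- replicate 2. The single call thus does not separate the genotypes, since the other WT embryo lacked it too. The study classes GRE1 as HH-dependent, which it defines by H3K27ac enriched in WT and absent in Shh-/- limb buds. That class rests on a histone mark measured in whole forelimb buds, and an ATAC peak call does not measure it. By PCR, the study also found more H3K27ac in posterior than anterior WT tissue at selected HH-dependent regions, and its primers include GRE1. Its ATAC signal from posterior forelimb buds gave a result for the class. Without HH signaling, HH-dependent regions were significantly less accessible than GLI3-bound regions with stable H3K27ac. The peak lists hold no read counts, so that comparison was not tested here. From the end of the GRE1 peak, no peak of any library followed for 116 kb until Grem1 intron 1, the longest stretch without a peak between regions of the locus.

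GLI proteins, which carry the SHH signal to target genes, bind the motif TGGGTGGTC. It was searched on both strands (reverse complement GACCACCCA) with at most 1 mismatch in 200 bp around each summit. It matched in 1 of 11 locus regions, against 5.61% of all regions, and in 0 of 5 distal ones, against 6.01% of all distal regions. The match was in the Scg5 promoter, GTCCACCCA at chr2:113829091-113829099 (1 mismatch), and 6.74% of all RefSeq promoter windows of 300 bp hold a match. The study's GLI3 ChIP-seq places a binding region at GRE1. This interval of 1043 bp held 1 match, TAGGTGGTC at chr2:113641083-113641091 on the plus strand (1 mismatch), which began at the last base of the ATAC peak. A match was found in 28.4% of windows of that length around the summits of distal regions. Both are matches of letters, and the peak lists used here hold no GLI binding data.

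Both Shh-/- libraries shared peaks in intron 4 and intron 8 of Fmn1. In intron 4, 298 kb from the Grem1 start, the region chr2:113460625-113461213 had a peak in Shh-/- replicate 1 that ranked 5038 of 5589, with 90.1% scoring higher. Its peak in Shh-/- replicate 2 ranked 13750 of 18459, with 74.5% scoring higher. The peaks overlapped by 235 bp and their summits lay 194 bp apart. These were low ranks in both lists.

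The region in intron 8, chr2:113581138-113581821, lay 177 kb from the Grem1 start. Shh-/- replicate 1 ranked it 4510 of 5589, with 80.7% scoring higher, and Shh-/- replicate 2 ranked it 7805 of 18459, with 42.3% scoring higher. The peak of Shh-/- replicate 1 lay wholly inside that of Shh-/- replicate 2, and the summits were 73 bp apart. It was thus the best ranked distal peak of the locus in both Shh-/- lists. WT replicate 1, with 39080 peaks, had none at either site.

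Neither region was still called in both Shh-/- libraries when peaks needed a score of at least 50, nor at equal list size. In the first case the scores of 26 and 34 in Shh-/- replicate 1 fell below the minimum, and only the intron 8 peak of Shh-/- replicate 2, with a score of 96, was kept. In the second the peaks of Shh-/- replicate 1 were kept at both sites and those of Shh-/- replicate 2 dropped out. Among the 328 distal regions of Shh-/- replicate 1 in the same decile as the intron 4 peak, 60.1% were in neither WT list, and among the 253 in the decile of the intron 8 peak, 50.6% were. Seen from Shh-/- replicate 2, the share in neither WT list was 53.3% of 861 for intron 4 and 20.3% of 602 for intron 8. A peak of this rank without a WT call was therefore common in the first 3 cases and less so in the last. These shares start from 1 Shh-/- list and do not ask for a call in the other. Regions in no other list made up 54.6% (intron 4) and 39.9% (intron 8) of the Shh-/- replicate 1 deciles. For Shh-/- replicate 2 they made up 51.7% and 15.1%. The pattern seen here, a call in both Shh-/- lists and no WT list, was thus much rarer than the shares without a WT call.

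The other distal regions were an intron 5 region and a coding exon. The intron 5 region (chr2:113497861-113498537), 261 kb from the Grem1 start, had rank 8950 in WT replicate 1, with 22.9% scoring higher, and rank 11386 in Shh-/- replicate 2, with 61.7% scoring higher. Its summits were 69 bp apart. In exon 2 of Fmn1, which is coding there, WT replicate 1 alone had a peak (chr2:113364974-113365216) at rank 28321, 1.25 kb from the nearest start site, with 72.5% scoring higher. Of 4379 distal regions in that decile of the list, 93.7% were in no other list.

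**Figure D3:**
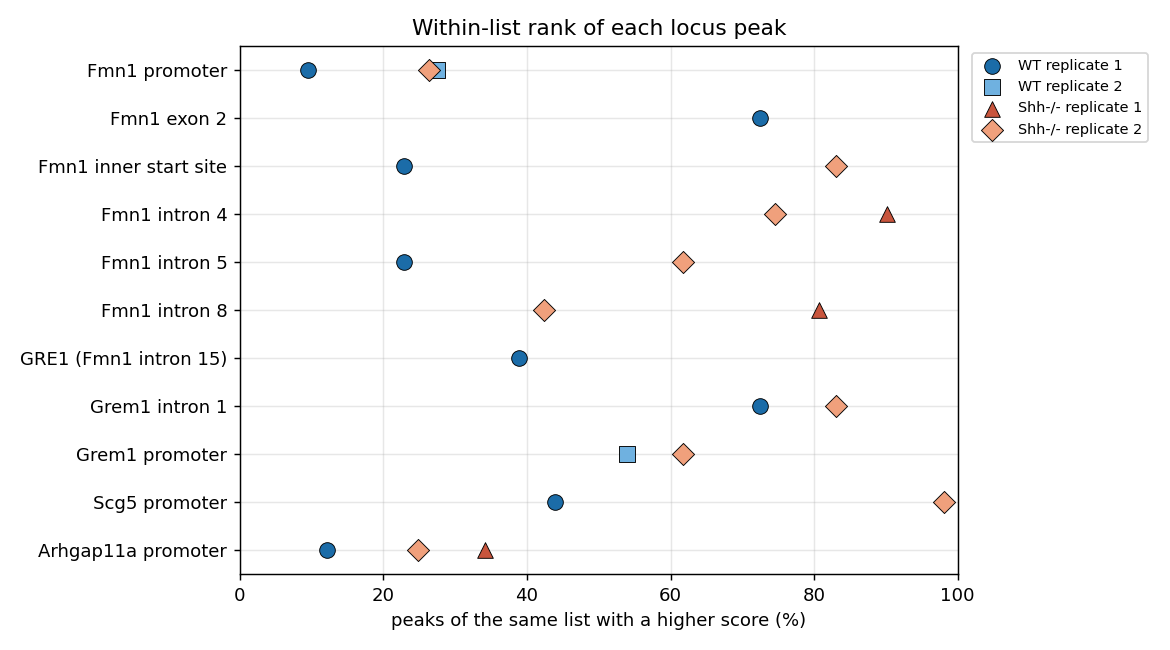
Position of each of the 22 peaks in its own list, as the percentage of peaks of that list with a higher score, for the 11 regions in order along the chromosome. Points further left are better ranked. The Fmn1 and Arhgap11a promoters lie between 9.52% and 34.2% in the libraries that called them, while the intron 4 peaks of the Shh-/- libraries lie at 74.5% and 90.1%.

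The distal regions of the locus were low in GC. Their 200 bp around the summit held 39.5% GC in intron 4, 42.0% in intron 5, 37.0% in intron 8, 43.0% in GRE1 and 55.0% in exon 2. The median of all distal regions was 53.0%, with quartiles of 48.5% and 57.0%, so 4 of the 5 lay below the lower quartile. Distal regions called in both Shh-/- and no WT library had a median of 41.0% (quartiles 37.5% and 46.5%, n = 165), and those of the reverse pattern had 55.5% (n = 484). The regions in introns 4 and 8 thus lay below both medians, and the one in intron 8 also below the lower quartile of regions with its calls. The part of base composition in these calls was not tested.

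**Figure D4:**
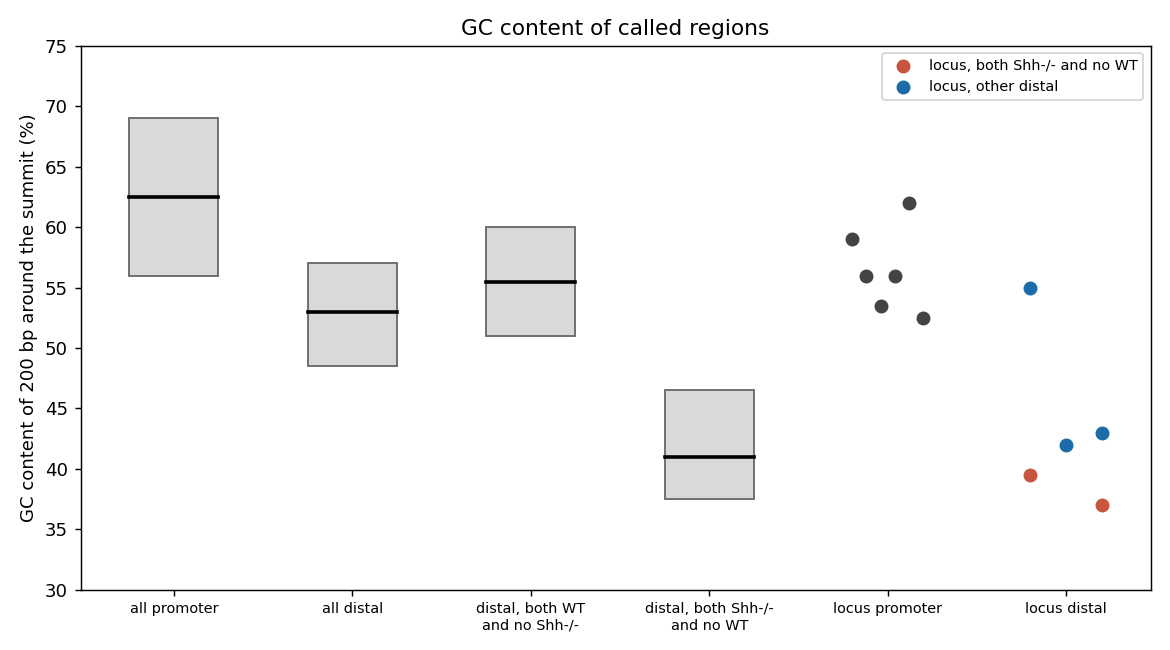
GC content of 200 bp around the summit, in percent. Boxes give the quartiles and the thick lines the medians of all promoter and distal regions and of the distal regions called in both libraries of a single genotype. Points are the 6 promoter and 5 distal regions of the locus. The points of the regions called in both Shh-/- libraries lie at 39.5% and 37.0%, below the lower quartile of 48.5% of all distal regions.

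The Fmn1 and Arhgap11a promoters were called in 3 libraries each, and at better ranks than the Grem1 start in every list that held both. The Fmn1 promoter (chr2:113327271-113328029) ranked 3720 of 39080 in WT replicate 1, with 9.52% scoring higher. It ranked 3291 of 11973 in WT replicate 2 and 4883 of 18459 in Shh-/- replicate 2, with 27.5% and 26.4% scoring higher. Its 3 summits lay within 32 bp of each other, and Shh-/- replicate 1 did not list it. Of the 1464 promoter regions in the same decile of Shh-/- replicate 2, 29.0% were in Shh-/- replicate 1. The share was 39.0% of 1031 for its decile of WT replicate 2 and 70.4% of 3699 for that of WT replicate 1. Absence from that short list was thus the commoner outcome by its rank in WT replicate 2 and Shh-/- replicate 2. By its rank in WT replicate 1 it was not.

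The Arhgap11a promoter (chr2:113847908-113849200) was the only region of the locus that Shh-/- replicate 1 shared with a WT library. It ranked 1912 of 5589 there, with 34.2% scoring higher, and 4582 of 18459 in Shh-/- replicate 2, with 24.8% scoring higher. In WT replicate 1 it ranked 4714 of 39080, with 12.1% scoring higher. WT replicate 2 did not call it, although 75.9% of the 3094 promoter regions in that decile of WT replicate 1 were in WT replicate 2, and 93.8% of the 469 in its decile of Shh-/- replicate 1 were. Calls therefore differed between the WT embryos at this promoter and not between the Shh-/- embryos.

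The Scg5 promoter (chr2:113828922-113829384) was called in WT replicate 1 at rank 17141, with 43.9% scoring higher, and in Shh-/- replicate 2 at rank 18105 of 18459, with 98.1% scoring higher. The summits lay 169 bp apart. It was near the bottom of the second list.

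Fmn1 has further start sites inside the gene. The window of the start at 113441064 also holds the start of the antisense gene Gm13963 and overlaps the window of the antisense gene Gm13966. The region over this Fmn1 start (chr2:113440349-113441361) ranked 8950 in WT replicate 1, with 22.9% scoring higher. It ranked 15320 in Shh-/- replicate 2, with 83.0% scoring higher. Only its WT replicate 1 peak reached the Gm13966 window. Its summits were 374 bp apart, and a peak there cannot be assigned to either strand. The other 8 genes with a start in the locus, among them the protein-coding Tmco5b, had no promoter peak in any library.

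Over the 4 genes, promoters were called for 3 in WT replicate 1 (60.4% of all 21924 protein-coding genes), 2 in WT replicate 2 (39.2%), 1 in Shh-/- replicate 1 (17.2%) and all 4 in Shh-/- replicate 2 (51.2%). The counts followed the order of these background shares except that Shh-/- replicate 2 exceeded WT replicate 1 by Grem1. No member promoter was called in both libraries of 1 genotype and neither of the other.

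The pathway genes around GREM1 are given for context by the same promoter calls, in the order WT replicates 1 and 2 and Shh-/- replicates 1 and 2. The shares over all protein-coding genes were 60.4%, 39.2%, 17.2% and 51.2% in that order. Of 11 other BMP antagonists, 8, 3, 0 and 6 were called. Nog and Twsg1, which bind BMPs outside the cell, and Bmper had a peak in every library but Shh-/- replicate 1. Of 10 BMP ligands, receptors and effectors, 10, 8, 2 and 10 were called, the 2 in every library being Smad4, the shared transducer, and Id1, a BMP target. Of 7 FGFs and receptors, 6, 4, 2 and 5 were called, and Fgf8, made in the ectodermal ridge, was called in none. Of 7 genes of the SHH arm, 6, 5, 3 and 4 were called. Gli1, a direct target of SHH signaling, was the only gene of these 4 lists with calls in both WT and no Shh-/- library, and 1.53% of all protein-coding genes had that pattern.

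**Figure D5:**
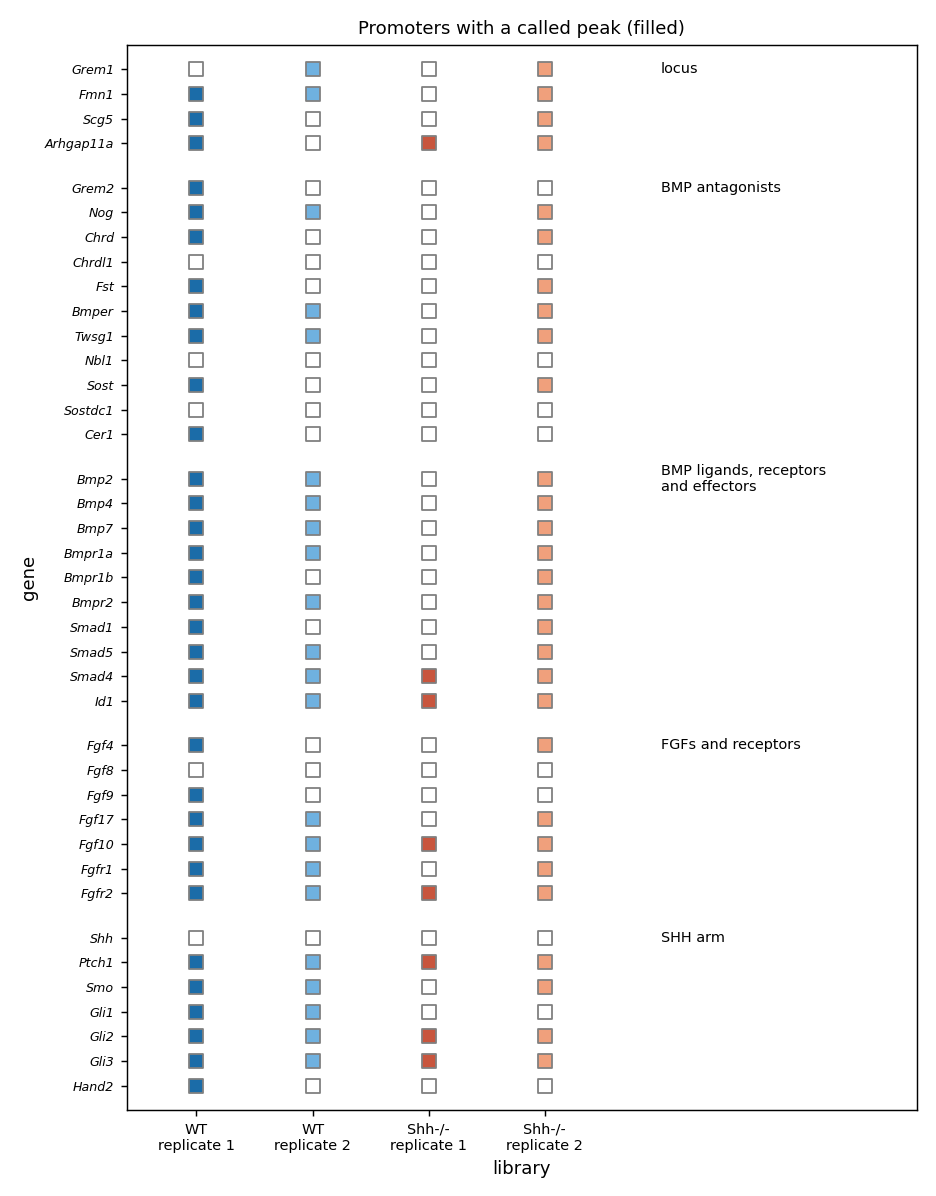
Promoter calls for the 4 genes of the locus and the genes of the BMP, FGF and SHH lists. Rows are genes, columns are libraries, and a filled square is a promoter window with a called peak. Grem1 is filled in WT replicate 2 and Shh-/- replicate 2, and Gli1 in both WT libraries only.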

How the data were processed

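The authors aligned and called peaks in each library separately, per the study's methods with MACS2 (q-value cutoff 0.05, window of 200 bp). The submitters' processing notes list Bowtie2 2.2.5, MACS2 2.1.0 and mm10. Read filters and any shift to the Tn5 cut are not given in the sources used here. The deposited lists give positions, summits and a score per peak, which was used only for ranks within a list. Tied scores took the lowest shared rank. The fold, p-value and q-value columns held 0 and were not used.

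Overlapping peaks (1 bp or more) formed a region, annotated with GENCODE M21. Sequence came from GRCm38.p6 and GC content from 200 bp around the best ranked summit. Peak number and covered length were compared by two-sided exact permutation tests over libraries. Python 3.11.15, pandas 2.3.3 and scipy 1.17.1 were used, and merging, motif search and tests were tested on simulated data. Named regions were all regions of the locus, and named genes were the 4 members, other genes with a start in it, and the 5 genes with the calls most like those of Grem1. The members and gene lists were chosen with earlier results of these data known. Replicates are separate embryos per the study's methods. Alternatives were score, list size, flank, sharing rule, scaling, replicate block and leaving out each library.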

Additional observations from a re-analysis of the deposited data

How the results depend on the processing

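The differences are WT minus Shh-/-. No alternative could pass the test, whose smallest p is 0.333. The peak number difference of -1 became 0 with scores of at least 50 and 0 in gene bodies only, and ranged from -4 to 2 when a library was left out, turning to 2 without WT replicate 2 and to 2 without Shh-/- replicate 2. The covered length difference of -68.5 bp turned to 181 with scores of at least 50, to 210 in gene bodies only and to 259.5 with a flank of 200 kb, and ranged from -2093 (without Shh-/- replicate 1) to 1956 (without Shh-/- replicate 2), being 1643.5 without WT replicate 2 and -1780.5 without WT replicate 1. Left-out fits had a lone library in 1 genotype. Scaled to the list, both differences kept their sign, at -3.26 peaks per 10000 and -208.5 bp per Mb of peaks. A replicate block gave the same differences of -1 and -68.5 (exact sign-flip permutation, p = 1 for each). Same-numbered libraries correlated at 0.25 in their deviations from the genotype means, but with 2 pairs from separate embryos the numbers do not pair them.

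Regions called in both Shh-/- and no WT library fell from 2 to 0 with scores of at least 50. They also fell to 0 at equal list size. In all, 167 of 18838 and 304 of 9282 regions had this pattern under these settings, and the locus kept 7 and 4 regions. With so few locus regions left, a count of 0 does not set the locus apart. Regions of this pattern numbered 2 to 3 with a library left out. Those of the WT pattern ranged from 0 to 2, being 2 without WT replicate 2 and 1 without Shh-/- replicate 2. Regions called in every library ranged from 0 to 1, being 1 without WT replicate 2 or without Shh-/- replicate 1. GLI matches numbered 0 with no mismatch allowed, 2 over whole regions and 0 with scores of at least 50. The Grem1 promoter was called in 1 library with scores of at least 50 and in 0 at equal list size. The causes of these changes were not tested beyond what each setting removes.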
